A study of Mus musculus with 2 samples.

Results

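The AKT1.MYC mouse liver tumour library held 120 cells that passed a marker rule for T cells, 1.16% of its 10313 barcodes with at most 20% mitochondrial UMIs (exact 95% interval 0.966 to 1.39%). A UMI is a molecular tag that marks 1 captured transcript, and a barcode stands for 1 droplet. The same rule found 1748 T cells among 6097 barcodes in the NRAS.MYC.ND library, 28.7% (27.5 to 29.8%). A barcode was a member if it showed at least 1 UMI in 2 or more of 6 genes, Cd3d, Cd3e, Cd3g, Trac, Trbc1 and Trbc2, which code for the CD3 chains and the constant parts of the T cell receptor. The genes C1qa, C1qb and C1qc, complement genes of macrophages, had to make up under 0.5% of its UMIs together, and the epithelial genes Krt19, Krt7, Epcam and Wfdc18 under 0.25%. The members were thus chosen by their measured receptor, C1q and epithelial UMIs, which are given below as description only.

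Both tumour models were made in C57BL/6 mice by hydrodynamic tail vein injection, a rapid large-volume injection that carries plasmids into hepatocytes, with the Sleeping Beauty transposase to insert them. The AKT1.MYC mice received 10 ug of Akt1 plasmid, 10 ug of human c-Myc plasmid and 5 ug of transposase plasmid each. The NRAS.MYC.ND mice received 19 ug of human N-Ras plasmid, 1 ug of human c-Myc plasmid and 2 ug of transposase plasmid, so the amounts of Myc and transposase differ between the models along with the partner oncogene. Tumours were taken from the liver 14 weeks after injection, digested with enzymes, depleted of dead cells and loaded for droplet-based 3 prime sequencing. There was 1 library per model, with no sort for immune cells. The age of the mice and how many were pooled are not given in the sources used here. No value below has a replicate, no test between the models was possible, and every interval covers counting error within these 2 libraries only.

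T cells recognise antigen through a receptor of alpha and beta chains, or of gamma and delta chains, that signals through the CD3 complex. CD8 T cells kill target cells with perforin and granzymes, CD4 T cells mostly direct other immune cells, and cells that meet antigen for long periods in tumours come to carry inhibitory receptors such as PD-1 and LAG-3. The liver also holds many natural killer cells and innate lymphoid cells, which carry no T cell receptor on their surface but can transcribe its unrearranged constant genes. A few receptor transcripts alone therefore do not separate these cell types.

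The 2 sets of T cells were sequenced to a like depth. The AKT1.MYC cells had a median of 3078 UMIs (quartiles 2161 and 4634, range 632 to 59852), 1340 genes and 1.66% mitochondrial UMIs, and the NRAS.MYC.ND cells 3086 UMIs (2349 and 4851, 514 to 63145), 1374 genes and 1.92%. In total the AKT1.MYC T cells held 642057 UMIs, against 9664076 in the NRAS.MYC.ND T cells. The libraries shared 17 barcode strings, none of them an AKT1.MYC member and 7 of them NRAS.MYC.ND members.

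Just inside the C1q limit the highest AKT1.MYC members had 0.492, 0.484 and 0.477% of UMIs from those genes, and the nearest barcodes outside it 0.581, 0.623 and 0.670%. Just inside the epithelial limit they had 0.249, 0.233 and 0.221%, and just outside it 0.261, 0.282 and 0.290%. Member medians were 0.171% for C1q and 0.0966% for the epithelial genes. Without these limits the rule would have taken 139 AKT1.MYC and 1898 NRAS.MYC.ND barcodes.

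Receptor transcripts were sparser in the AKT1.MYC T cells. Of the 120, 30 showed only 2 of the 6 receptor genes, 19 showed 3, 33 showed 4, 29 showed 5 and 9 showed all 6. In the NRAS.MYC.ND cells the numbers in the same order were 203, 82, 171, 572 and 720. At least 1 CD3 gene was seen in 105 AKT1.MYC members (87.5%) and in 1677 NRAS.MYC.ND members (95.9%). Thus 105 cells passed the rule with a CD3 gene among those seen, while the other 15 passed on Trac, Trbc1 and Trbc2 alone. A further 475 AKT1.MYC barcodes (4.61%) and 1063 NRAS.MYC.ND barcodes (17.4%) showed exactly 1 receptor gene and were not taken.

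Of the markers that name the cells, Trbc2, the second beta constant gene (chr6:41546730-41548352, plus strand, GRCm38), was seen in 87 members and Cd3e, the CD3 epsilon chain (chr9:44998740-45009627, minus strand), in 75. Trac, the alpha constant gene (chr14:54220521-54224206, plus strand), was seen in 73. Summed over the cells, Cd3e stood at 238 CPM (UMIs per 1000000 UMIs of the summed cells) in AKT1.MYC against 1112 CPM in NRAS.MYC.ND T cells, Trac at 260 against 647 CPM and Trbc2 at 487 against 1377 CPM. Cd247, the CD3 zeta chain, which the rule did not use, stood at 59.2 against 92.1 CPM.

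Transcripts released from broken cells can enter any droplet, so macrophage barcodes served as a measure of background. These C1q-high barcodes (C1q genes at 0.5% of UMIs or more) numbered 4349 in AKT1.MYC, at a median of 1281 UMIs, and 1284 in NRAS.MYC.ND, at a median of 8894 UMIs. In them Cd3e was seen in 0.322% of AKT1.MYC and 13.7% of NRAS.MYC.ND barcodes, and Trbc2 in 1.13% and 13.7%. The depths differ between the libraries, and from the T cell medians of 3078 and 3086 UMIs. Background shares are therefore not directly comparable with T cell shares. They also count any transcripts that the cells in these barcodes make themselves. Where given below, they stand in the order AKT1.MYC then NRAS.MYC.ND.

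The AKT1.MYC T cells in turn carried transcripts of their surroundings. Spp1, made by duct-like tumour cells and macrophages, was seen in 100% of them, C1qa in 88.3% and Wfdc18 in 85%, against 58.9%, 37.4% and 0.858% of NRAS.MYC.ND T cells. Alb, the hepatocyte albumin gene, was seen in 33.3% of AKT1.MYC and 98.2% of NRAS.MYC.ND T cells. The summed level of 10 macrophage markers ran over 0.0880 to 0.924% of UMIs (median 0.318%) in AKT1.MYC members, all 10 seen, against 0 to 3.90% (median 0.0551%) in NRAS.MYC.ND members. For 10 duct-like markers it was 0.326 to 6.22% (median 0.788%) against 0 to 12% (median 0.0661%). Some defining markers of other lineages were at 0 in AKT1.MYC members, among them Cd79a and Ms4a1 of B cells, Xcr1 and Clec9a of dendritic cells, Ly6g of neutrophils, and Cpa3 and Mcpt8 of mast cells and basophils. Others of the same lists were seen, namely 4 of 8 B and plasma genes, 5 of 9 dendritic genes, 6 of 7 neutrophil genes and 1 of 6 mast and basophil genes. Igkc, an immunoglobulin light chain gene, was seen in 35.8% of AKT1.MYC and 62.2% of NRAS.MYC.ND T cells.

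Some members carried far more than background. In 14 AKT1.MYC cells (11.7%) at least 2% of UMIs came from 1 of 10 marker lists of other cells, 10 of them from duct-like epithelium, 2 from fibroblasts and 2 from neutrophils. These mixed barcodes had a median of 11133 UMIs and held 42.4% of all UMIs of the AKT1.MYC T cells. In NRAS.MYC.ND 152 cells (8.70%) were mixed, with 27.7% of the UMIs. Both this limit and the 4 subgroups below were chosen after the values had been seen, and the gene list counts are given for all cells and without the mixed barcodes. CPM of single genes are over all members unless stated otherwise, so the UMIs of mixed barcodes enter the totals they are scaled to.

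**Figure D1:**
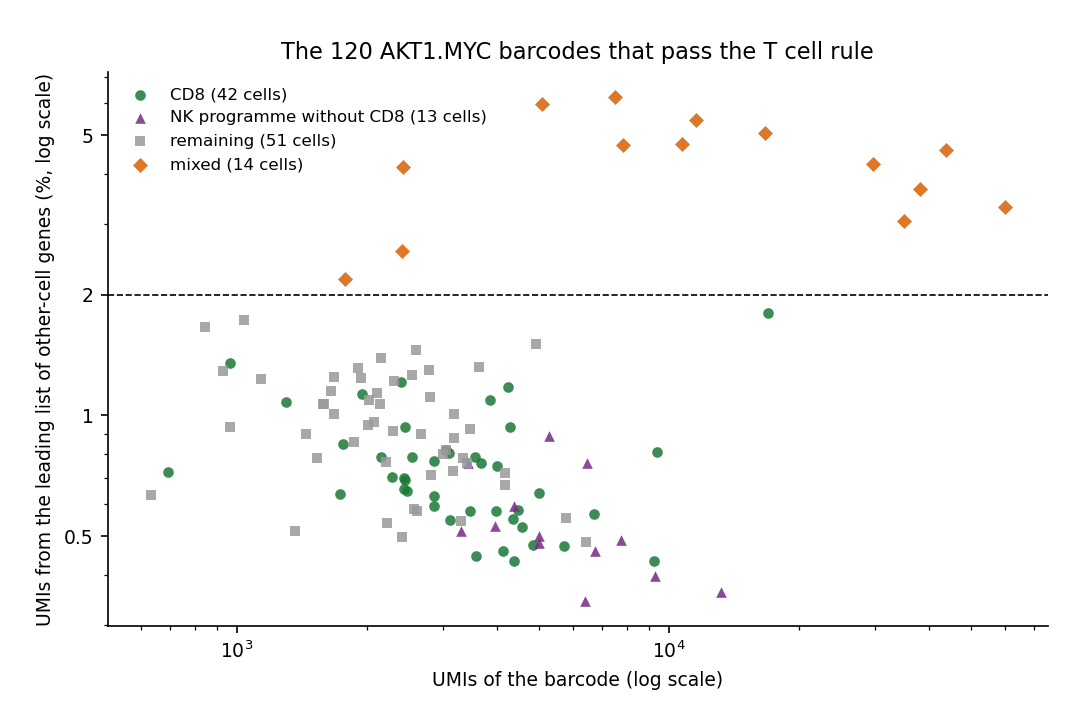
UMIs per cell (log axis) against the percent of UMIs from the leading marker list of other cells (log axis) for each AKT1.MYC T cell, in the colours of 4 subgroups; the dashed line marks 2%. The 14 mixed barcodes lie above the line, at a median of 11133 UMIs, while the 51 cells with neither CD8 nor NK genes have a median of 2293.

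Leaving the mixed barcodes aside, the AKT1.MYC T cells divided into 42 CD8 cells (35% of the 120), 13 cells with natural killer (NK) receptor genes and no CD8, and 51 cells with neither. Median depth was 3282 UMIs in the CD8 cells, 5279 in the NK-receptor cells and 2293 in the remaining cells. The corresponding NRAS.MYC.ND subgroups held 1105, 59 and 432 cells.

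Cytotoxic lymphocyte genes set the 120 cells apart from all other AKT1.MYC barcodes. By a rule of size (at least 100 CPM, seen in at least 20% of the T cells), the 15 genes with the largest ratio ran from Cd8b1, the CD8 beta chain, at 300-fold to Ptprcap, a partner of the phosphatase CD45, at 92.4-fold. Ccl5, a chemokine of activated T and NK cells, stood at 5141 CPM in the T cells and 40.3 CPM in the other barcodes, and was seen in 75.8% of the T cells. Nkg7, a granule protein of killer cells, stood at 607 against 4.94 CPM and was seen in 67.5%. Gzmb, granzyme B, and Ctsw, cathepsin W, had ratios of 106 each, and Pdcd1, which codes for PD-1, had 171 (121 against 0.710 CPM). Others of the 15 were signalling and adhesion genes of T cells, namely Lat, Skap1, Sh2d2a, Cd2 and the costimulatory receptor Cd28. These genes accompany the receptor genes the rule used, so the ratios describe the cells and carry no test.

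CD8 was the main coreceptor. Cd8a or Cd8b1 without Cd4 was seen in 49 AKT1.MYC members, 40.8% (32.0 to 50.2%), and in 1156 NRAS.MYC.ND members, 66.1% (63.9 to 68.4%), with background shares of 0.322 and 8.33%. With every cell thinned to 1500 UMIs, which leaves 109 AKT1.MYC and 1662 NRAS.MYC.ND cells, the shares were 27.5% (19.4 to 36.9%) and 57.0%. The intervals do not overlap either way. Cd4 was seen in 4 AKT1.MYC cells (3.33%, 0.916 to 8.31%) and 90 NRAS.MYC.ND cells (5.15%), with backgrounds of 0.207 and 3.89%. Neither coreceptor was seen in 67 AKT1.MYC cells (55.8%), against 502 (28.7%).

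Foxp3, the defining factor of regulatory T cells, was rarely seen in either library. It was seen in 0 of 120 AKT1.MYC cells, which allows a share of cells with a UMI of up to 2.50%, and in 13 of 1748 NRAS.MYC.ND cells. The 0 therefore does not separate the libraries and does not show that regulatory T cells were absent. Trdc, the delta constant gene, was seen in 7 AKT1.MYC cells (5.83%, 2.38 to 11.6%) and 23 NRAS.MYC.ND cells (1.32%), with backgrounds of 0.0460 and 0.156%. Il17a, the cytokine of type 17 cells, was seen in 3 cells of each library. In AKT1.MYC, 1 of these cells had 5 receptor genes, 3 Trdc, 2 Il17a and 3 Il7r UMIs among 3638, with 1 Trac and 3 Trbc2. Another had 5 Il17a UMIs among 4174, with 2 of the gamma constant gene Tcrg-C1, 6 Trac, 2 Trbc2 and 0 Trdc. The last had 1 Il17a UMI among 1361, with 1 Trac, 3 Trbc1, 0 Trdc and 0 Tcrg-C1.

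Few receptor V segments could be read from the 3 prime tags. Of 260 segment genes in the files, 14 had a UMI in AKT1.MYC T cells, with 33 UMIs in 22 cells (18.3%), against 78 genes and 607 UMIs in 407 NRAS.MYC.ND cells (23.3%). Trgv2, a gamma segment, led with 10 UMIs in 8 AKT1.MYC cells (6.67%), against 108 NRAS.MYC.ND cells (6.18%). No alpha or beta segment was seen in more than 2 AKT1.MYC cells.

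**Figure D2:**
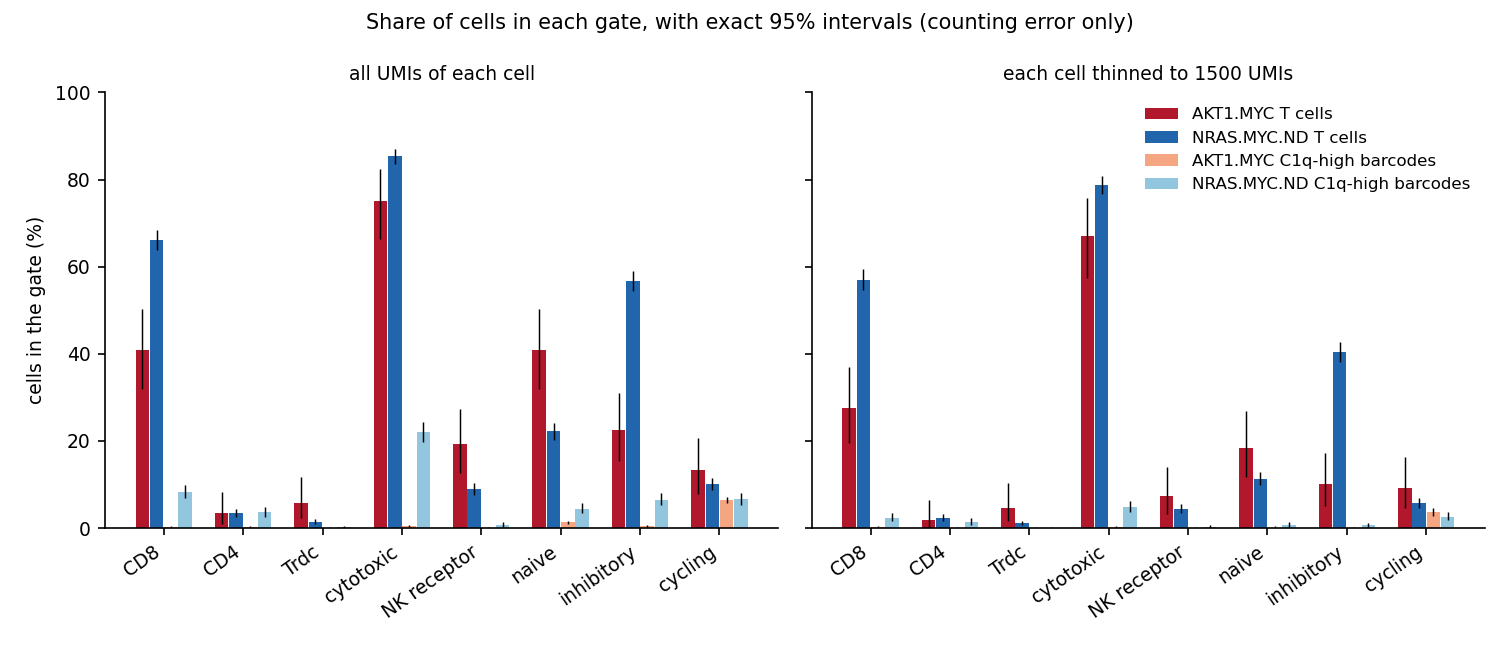
Percent of cells in each gate for T cells and for C1q-high barcodes of both libraries, with all UMIs and after thinning to 1500 UMIs; lines are exact 95% intervals. AKT1.MYC T cells lie below NRAS.MYC.ND T cells for CD8 (40.8 against 66.1%) and the inhibitory programme (22.5 against 56.8%) and above them for the naive programme (40.8 against 22.2%).

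Inhibitory receptors and the factors that accompany them were lower in AKT1.MYC T cells. In a list of 18 genes of inhibition and exhaustion, 14 were at least 2-fold lower and 0 at least 2-fold higher, with a median log2 ratio of -1.53. Over all 13781 genes with at least 10 UMIs in both sets together, 15.2% were at least 2-fold lower, 11.0% at least 2-fold higher, and the median was -0.08. Without the mixed barcodes, 13 of the 18 were lower and 1 higher with a median of -1.21, against 17.9% and 9.70% of 12263 genes and a median of -0.16. Among the 14 list genes with at least 160 UMIs, 12 were lower and 0 higher, against 14.4% and 4.09% of all genes at that depth. Leaving out the mixed barcodes, 12 of 14 were lower and 1 higher, against 18.1% and 2.92%.

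Lag3, an inhibitory receptor for MHC class II (chr6:124904361-124911705, minus strand), stood at 10 UMIs or 15.6 CPM in AKT1.MYC T cells, against 2160 UMIs or 224 CPM in NRAS.MYC.ND T cells. Its log2 ratio was -3.84 (-4.91 to -2.96), and it ran from -4.37 to -3.50 over the other ways of processing. Lag3 was seen in 9 AKT1.MYC cells (7.50%) and 749 NRAS.MYC.ND cells (42.8%), with backgrounds of 1.33 and 12.9%, and in 4.59% and 29.1% after thinning. Tox, a transcription factor of exhausted CD8 cells (chr4:6686353-6991557, minus strand), stood at 38.9 against 249 CPM, with a ratio of -2.68 (-3.31 to -2.11) on the log2 scale. It was seen in 20 AKT1.MYC and 1001 NRAS.MYC.ND cells. Lag3 and Tox were thus scarce in the AKT1.MYC cells and common in the NRAS.MYC.ND cells.

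The same direction held for Tox2 at 6.23 against 45.0 CPM, Havcr2, which codes for TIM-3, at 10.9 against 53.8 CPM, and Ctla4 at 74.8 against 202 CPM. Tigit had 1 UMI in AKT1.MYC T cells, against 80 in NRAS.MYC.ND T cells. Maf, a factor outside the list that drives interleukin 10 in T cells, stood at 81.0 against 368 CPM.

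PD-1 was an exception. Pdcd1 (chr1:94038305-94052553, minus strand) stood at 121 CPM in AKT1.MYC and 119 CPM in NRAS.MYC.ND T cells, a log2 ratio of 0.03 (-0.32 to 0.36). It was seen in 31 of 120 AKT1.MYC cells (25.8%, 18.3 to 34.6%) and in 602 of 1748 NRAS.MYC.ND cells (34.4%, 32.2 to 36.7%), with backgrounds of 0.299 and 1.40%, and in 19.3% and 20.9% after thinning. The interval of the ratio includes no difference and reaches 0.36 on the log2 scale in the upward direction.

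Counted per cell, 2 or more of 7 inhibitory genes (Pdcd1, Lag3, Havcr2, Tigit, Ctla4, Tox and Tox2) were seen in 27 AKT1.MYC cells, 22.5% (15.4 to 31.0%), against 992 NRAS.MYC.ND cells, 56.8% (54.4 to 59.1%). Background shares were 0.506 and 6.54%, and the thinned shares were 10.1% (5.15 to 17.3%) against 40.4%. The AKT1.MYC set holds fewer CD8 cells, so the same count was made inside the CD8 subgroup without mixed barcodes. There 10 of 42 AKT1.MYC cells passed, 23.8% (12.1 to 39.5%), against 829 of 1105 NRAS.MYC.ND cells, 75%.

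Within those CD8 cells Lag3 was seen in 3 AKT1.MYC cells (7.14%) against 57.8% of NRAS.MYC.ND cells, and Tox in 5 (11.9%) against 73.2%. The backgrounds of Tox were 0.667 and 3.82%. Gzmk, granzyme K, was seen in 9 (21.4%) against 70.9%, Cxcr6, a chemokine receptor of tissue-resident T cells, in 9 (21.4%) against 63.1%, and Ifng, interferon gamma, in 9 (21.4%) against 54.3%. Backgrounds were 0.092 and 4.21% for Gzmk, 0.161 and 3.43% for Cxcr6 and 0.414 and 3.89% for Ifng. Pdcd1 was again closer, in 14 (33.3%) against 47.4%. The AKT1.MYC CD8 cells therefore differed from the NRAS.MYC.ND CD8 cells most in Tox, Lag3 and Gzmk, in percentage points and among these 6 genes.

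**Figure D3:**
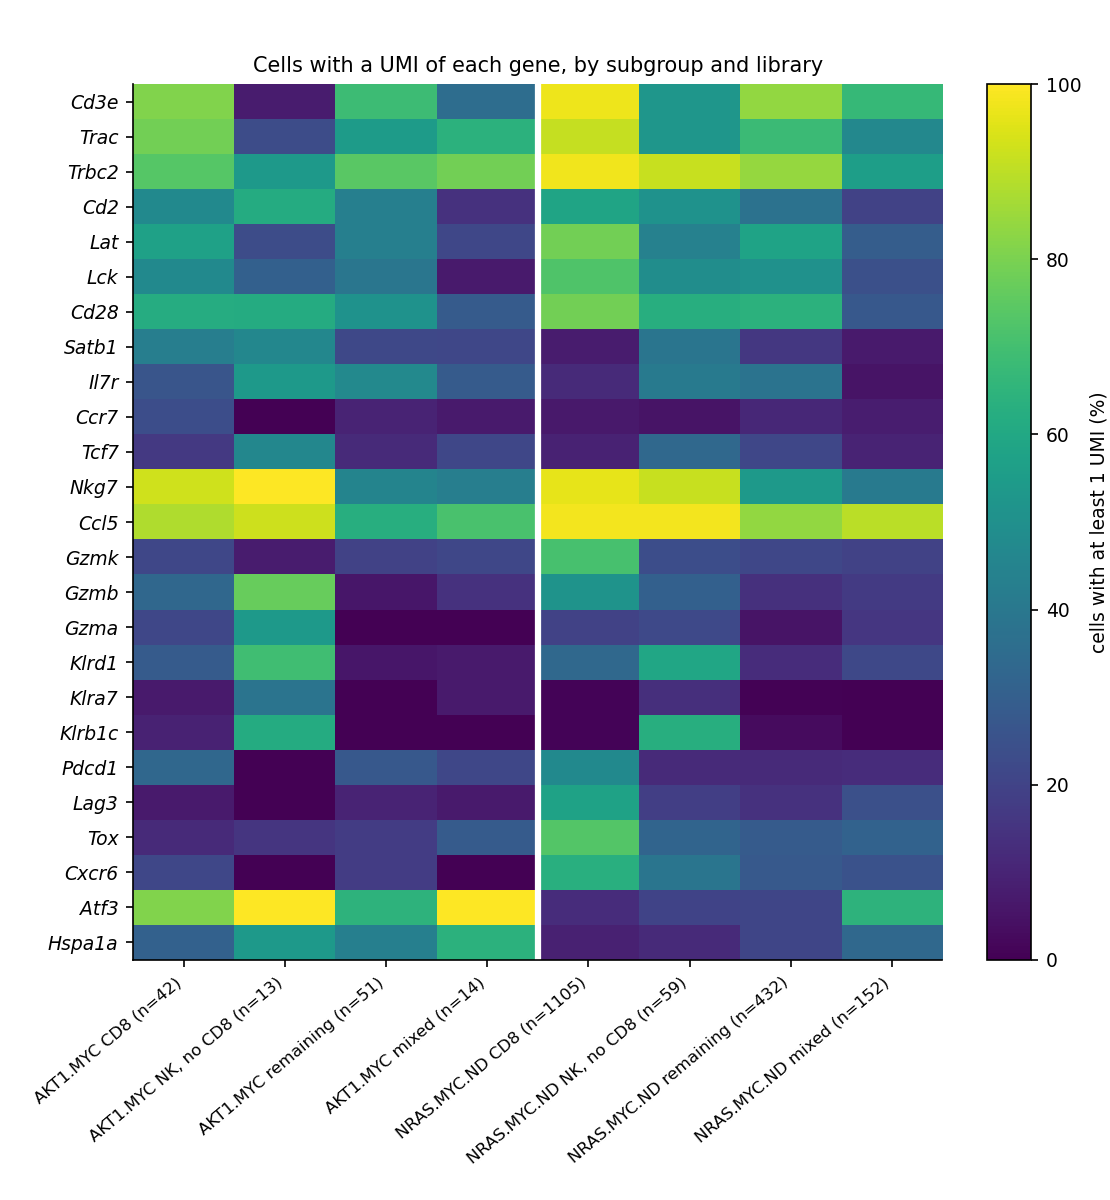
Percent of cells with at least 1 UMI of 25 genes in the CD8, NK-receptor, remaining and mixed subgroups of AKT1.MYC and NRAS.MYC.ND T cells. In the CD8 columns Tox is seen in 11.9% of AKT1.MYC and 73.2% of NRAS.MYC.ND cells, and Satb1 in 42.9 and 7.60%.

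Genes of naive and memory T cells were mixed as a list and higher for some members. Of 12 genes, 2 were at least 2-fold higher and 3 at least 2-fold lower, with a median of -0.04, against 11.0% and 15.2% of all genes. Without mixed barcodes 4 were higher and 4 lower, with a median of 0.30, against 9.70% and 17.9%. Satb1, a chromatin organiser of developing and naive T cells (chr17:51736187-51833290, minus strand), stood at 88.8 CPM in AKT1.MYC against 31.4 CPM in NRAS.MYC.ND T cells (log2 ratio 1.5, interval 1.07 to 1.91). It was seen in 38 AKT1.MYC cells (31.7%) and 188 NRAS.MYC.ND cells (10.8%), with backgrounds of 1.26 and 5.84%. Il7r, the interleukin 7 receptor that sustains resting T cells (chr15:9505788-9530176, minus strand), stood at 150 against 70.2 CPM and was seen in 46 (38.3%) against 330 (18.9%) cells, with backgrounds of 5.45 and 3.27%. Both genes were higher by ratio and by share of cells.

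Lower members of the list were S1pr1, a receptor that lets T cells leave tissue, at 31.1 against 75.4 CPM, Bach2, a repressor of effector fate, at 3.11 against 13.9 CPM, and Dapl1. Ccr7, a lymph node homing receptor, stood at 62.3 against 46.3 CPM with a log2 ratio of 0.43 (-0.08 to 0.90).

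At least 2 of 7 naive genes (Ccr7, Lef1, Tcf7, S1pr1, Il7r and Satb1 among them) were seen in 49 AKT1.MYC cells (40.8%) and 388 NRAS.MYC.ND cells (22.2%, 20.3 to 24.2%), with backgrounds of 1.33 and 4.44%. After thinning the shares were 18.3% (11.6 to 26.9%) and 11.3% (9.77 to 12.9%), and their intervals overlap. Among the CD8 cells the shares were 50% (34.2 to 65.8%) of 42 AKT1.MYC and 14.7% of 1105 NRAS.MYC.ND cells. In those CD8 cells Satb1 was seen in 42.9% against 7.60%, Ccr7 in 23.8% against 6.70% and Lef1, a partner of Tcf7 in naive cells, in 28.6% against 12.2%. Tcf7 was seen in 16.7% against 9.59%.

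Among genes of cytotoxic cells, Ccl5 was seen in 75.8% of AKT1.MYC T cells and Nkg7 in 67.5%. Granzyme genes and perforin were each seen in a minority, with Gzmb in 24.2%, Gzmk in 19.2%, Prf1 in 14.2% and Gzma in 13.3%. At least 2 of 9 cytotoxic genes (Gzma, Gzmb, Gzmc, Gzmk, Prf1, Nkg7, Ccl5, Ctsw and Fasl) were seen in 90 cells, 75% (66.3 to 82.5%), against 85.4% of NRAS.MYC.ND cells, and in 67.0% against 78.8% after thinning. The background was 0.460 and 22.0%. In the list of 17 cytotoxicity genes 2 were at least 2-fold higher and 7 at least 2-fold lower, with a median of -0.40, against 11.0% and 15.2% of all genes. Without mixed barcodes 4 were higher and 6 lower, with a median of -0.13, against 9.70% and 17.9%. Nkg7 stood at 607 CPM in AKT1.MYC against 1515 CPM in NRAS.MYC.ND T cells, Prf1, perforin, at 37.4 against 82.3 CPM, Gzmb at 134 against 240 CPM and Gzmk at 71.6 against 280 CPM. The log2 ratio of Gzmk was -1.97 (-2.42 to -1.55). Without mixed barcodes Nkg7 stood at 995 against 2027 CPM, Prf1 at 62.2 against 110 CPM, Gzmb at 224 against 321 CPM and Gzmk at 111 against 373 CPM.

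Ccl5 stood at 5141 against 17678 CPM in the 2 sets of T cells (log2 ratio -1.78), while it was seen in 91 of 120 AKT1.MYC and 1641 of 1748 NRAS.MYC.ND cells. Its background was high in NRAS.MYC.ND, at 79.0% of C1q-high barcodes against 7.17% in AKT1.MYC. The chemokines Ccl3 and Ccl4 stood at 227 against 828 CPM and at 576 against 2231 CPM. Ctsw at 238 against 207 CPM and Fasl, the Fas ligand, at 48.3 against 63.6 CPM were within 2-fold. Serpinb9, an inhibitor of granzyme B, was higher at 88.8 against 46.2 CPM.

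Gzma, granzyme A (chr13:113093825-113100981, minus strand), had most of its UMIs in few cells. It had 519 UMIs or 808 CPM in AKT1.MYC T cells against 4441 UMIs or 460 CPM in NRAS.MYC.ND T cells, a log2 ratio of 0.81 (0.68 to 0.95). Without mixed barcodes it stood at 1404 against 603 CPM, a ratio of 1.22 (1.08 to 1.35) on that scale. It was seen in 16 AKT1.MYC cells (13.3%, 7.82 to 20.7%) and 277 NRAS.MYC.ND cells (15.8%, 14.2 to 17.6%), with backgrounds of 0.828 and 4.13%. In AKT1.MYC 1 cell held 196 of the UMIs (37.8%) and 3 cells held 375 (72.3%), while the top 3 NRAS.MYC.ND cells held 14.7%. The higher level thus came with a share of positive cells whose interval overlaps that of NRAS.MYC.ND.

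Most Gzma UMIs of the AKT1.MYC cells lay in cells with few receptor genes seen. Of the 519 UMIs, 390 (75.1%) lay in 8 cells that showed only 2 receptor genes, against 63 UMIs (1.42%) in NRAS.MYC.ND. Cells with no CD3 gene, 6 in number, held 287 UMIs (55.3%), against 39 (0.878%). The 4 AKT1.MYC Gzma cells with 5 receptor genes held 108 UMIs (20.8%), 81 of them in 1 cell. With at least 3 receptor genes required, the log2 ratio turned to -0.85, and inside the CD8 gate alone it was -0.26. Of the 16 Gzma cells, 12 were in the NK receptor gate, 9 had CD8 and 14 had Gzmb, and none was mixed.

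**Figure D4:**
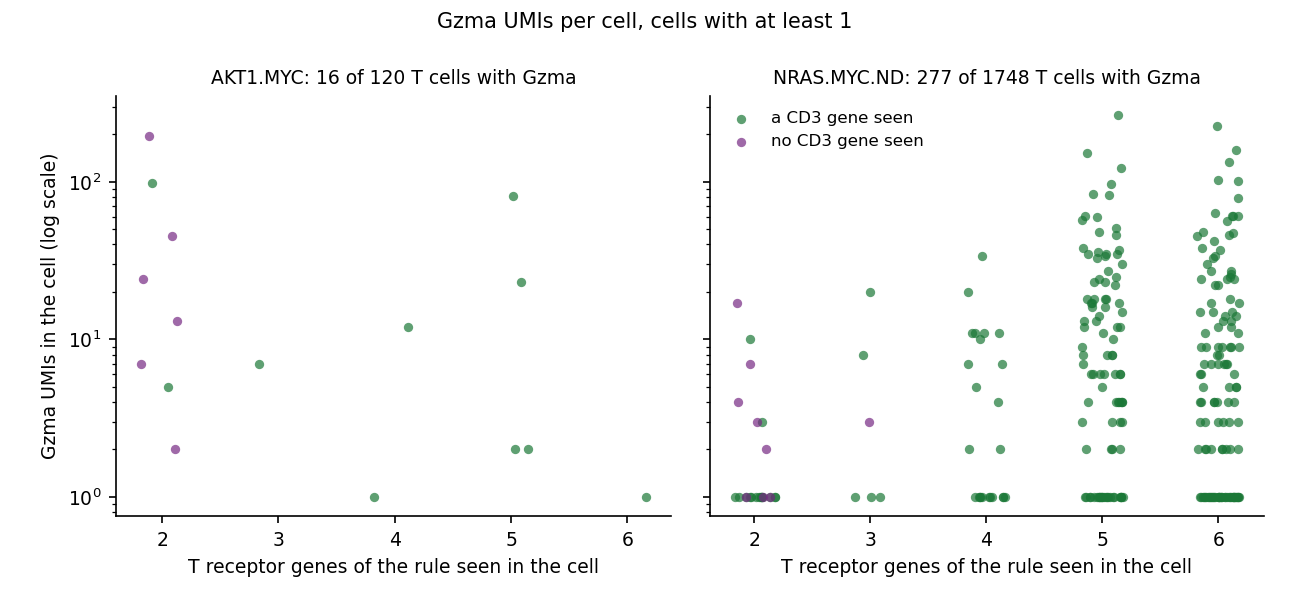
Gzma UMIs per cell against the number of receptor genes seen, for AKT1.MYC and NRAS.MYC.ND T cells, coloured by whether any CD3 gene was seen. In AKT1.MYC, 390 of 519 Gzma UMIs lie in cells with 2 receptor genes, against 63 of 4441 in NRAS.MYC.ND.

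NK receptor genes were higher in the AKT1.MYC set by the full list, while its better measured members depended on the mixed barcodes. In a list of 22, 11 were at least 2-fold higher and 3 at least 2-fold lower, with a median of 0.99, against 11.0% and 15.2% of all genes. Without mixed barcodes 14 were higher and 2 lower, with a median of 1.67, against 9.70% and 17.9%. Among the 9 list genes with at least 160 UMIs, 1 was higher and 2 lower, with a median of -0.05, against 4.09% and 14.4% of genes at that depth. Leaving out mixed barcodes, 3 of 9 at that depth were higher and 2 lower, with a median of 0.39, against 2.92% and 18.1%. With 3 receptor genes required the median was -0.19, with cells thinned to 1500 UMIs it was 0.15, and with the rule on thinned barcodes 0.06. Klra7, a Ly49 receptor for MHC class I (chr6:130218605-130233322, minus strand), stood at 37.4 CPM in AKT1.MYC against 5.17 CPM in NRAS.MYC.ND T cells, a log2 ratio of 2.85 (2.09 to 3.58), with 9 and 20 positive cells. The ratio was 0.50 when 3 receptor genes were required. Klrb1c, the NK1.1 antigen of this strain, stood at 29.6 against 13.7 CPM, and Klrb1b at 42.1 against 10.7 CPM. The related receptors Klrd1, at 95 against 111 CPM, and Klrk1, which codes for NKG2D, at 93.4 against 97 CPM, were within 2-fold.

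At least 2 of 10 NK genes (Ncr1, Klrb1c, Klrb1b, Klre1, Klra4, Klra7, Klra8, Klrc2, Klri2 and Eomes) were seen in 23 AKT1.MYC cells, 19.2% (12.6 to 27.4%), against 156 NRAS.MYC.ND cells, 8.92% (7.63 to 10.4%), with backgrounds of 0.023 and 0.701%. The shares were 7.34% (3.22 to 14.0%) and 4.45% (3.51 to 5.56%) after thinning, and 11.1% (5.46 to 19.5%) and 8.48% with 3 receptor genes required. The intervals overlap in both of these cases.

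The 13 NK-receptor cells without CD8 mostly showed few receptor genes. Of these, 12 showed only 2 receptor genes and 7 no CD3 gene. The other 1 showed 5 receptor genes, with 7 Cd3d and 5 Trbc2 UMIs. Trbc1 was seen in 11, Trbc2 in 7, Trac in 3 and Cd3e in 1. Nkg7 was seen in 13, Ccl5 in 12, Il2rb, the interleukin 2 and 15 receptor beta chain, in 11, Gzmb in 10, Klrk1 in 10 and Gzma in 7. Pdcd1, Lag3 and Cxcr6 were seen in 0 of the 13, which is a small number of cells in which to detect them. The receptor rule alone did not separate these cells from NK cells.

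Outside the rule, 22 AKT1.MYC and 62 NRAS.MYC.ND barcodes passed the NK gate with at most 1 receptor gene. In those 22, Gzma stood at 8259 CPM and was seen in 13 (59.1%), Klrb1c in 12, Ncr1, the NK receptor NKp46, in 8 and Trbc1 in 10, while Cd3d, Cd3e, Cd3g, Cd8a, Cd8b1, Gzmk and Pdcd1 were at 0. In the 62 NRAS.MYC.ND barcodes Gzma stood at 1270 CPM and was seen in 33 (53.2%).

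Of the 51 AKT1.MYC cells with neither CD8 nor the NK gate, 48 (94.1%) showed a CD3 gene. Cd3e was seen in 35 (68.6%), Trbc2 in 38 and Trac in 28 (54.9%). The rule chose the cells by these genes, so the values describe the cells and do not test what they are. Ccl5 was seen in 32 (62.7%), Nkg7 in 23 (45.1%) and Gzma in 0. Il7r was seen in 24 (47.1%) against 38.0% of the 432 such NRAS.MYC.ND cells, Icos, a costimulatory receptor, in 19 (37.3%) against 26.9%, and Pdcd1 in 14 (27.5%) against 12%. Cd4 was seen in 4 (7.84%) against 18.8%, and Trdc in 5 (9.80%). These cells, outside the CD8 and NK gates, thus carried Cd4 in few cases.

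Interferon response genes were lower in AKT1.MYC T cells. Of 18 genes, 13 were at least 2-fold lower and 0 at least 2-fold higher, with a median of -1.38, against 15.2% and 11.0% of all genes. Without mixed barcodes 10 were lower and 0 higher, with a median of -1.10, against 17.9% and 9.70%. Over every setting tried the median ran from -1.63 to -0.89. The genes are switched on by type I or type II interferons, and many carry the interferon-stimulated response element in their promoters. That element was searched as GAAANNGAAA on both strands from 250 bases before to 50 after each gene start in the RefSeq promoter table (GRCm38.p6). It matched in 8 of the 12 list members with a window (66.7%), against 1079 of all 27025 genes in the table (3.99%). The stretches below show a match for 4 of the lower genes, in capitals and read along the gene, with TTTC-first matches lying on the opposite strand, and Isg15 had overlapping matches, of which 1 is marked.
Isg15, chr4:156200861-156200910, minus strand: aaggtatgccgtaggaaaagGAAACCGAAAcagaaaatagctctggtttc
Ifit3, chr19:34583353-34583402, plus strand: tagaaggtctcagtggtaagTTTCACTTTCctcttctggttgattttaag
Gbp2, chr3:142620584-142620633, plus strand: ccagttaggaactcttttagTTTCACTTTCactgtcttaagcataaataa
Igtp, chr11:58199502-58199551, plus strand: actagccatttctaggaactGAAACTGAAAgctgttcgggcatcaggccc

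Isg15, a ubiquitin-like protein, stood at 57.6 CPM in AKT1.MYC against 127 CPM in NRAS.MYC.ND T cells (log2 ratio -1.14, -1.65 to -0.67). Ifit3, an interferon-induced antiviral protein, stood at 6.23 against 30.7 CPM, Gbp2, a guanylate binding protein, at 10.9 against 43.8 CPM and Igtp, an immunity-related GTPase, at 10.9 against 42.5 CPM. Iigp1, another such GTPase, had 4 UMIs in AKT1.MYC T cells, against 2314 in NRAS.MYC.ND T cells. Irf7, at 26.5 against 70.3 CPM and with no match to the element in its window, was lower too, while Bst2, with a match, was within 2-fold at 248 against 264 CPM.

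The other barcodes of each library differed in the same direction for these genes. Outside the T cells Isg15 stood at 54.0 CPM in AKT1.MYC and 138 CPM in NRAS.MYC.ND, Ifit3 at 13.1 and 64.1 CPM, Gbp2 at 8.65 and 85.7 CPM, Igtp at 10.5 and 30.7 CPM and Iigp1 at 28.5 and 303 CPM. The T cell level of Isg15 was thus close to that of the surrounding barcodes in both libraries. The part of free RNA in the T cell values was not tested.

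**Figure D5:**
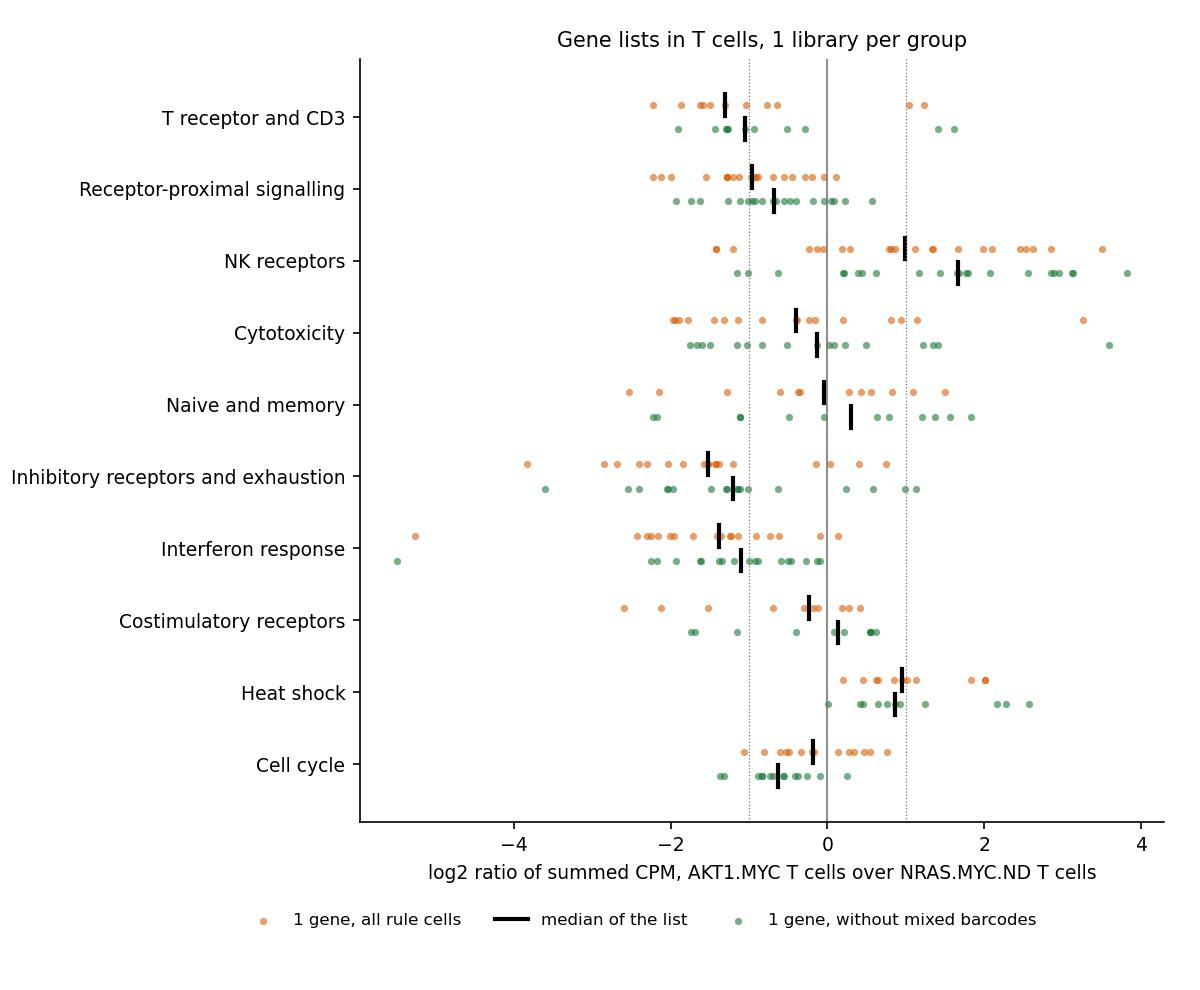
Log2 ratio, AKT1.MYC over NRAS.MYC.ND T cells, of each gene in 10 lists, for all cells and without mixed barcodes; the short lines are list medians. The inhibitory and interferon lists have medians of -1.53 and -1.38 and the NK receptor list 0.99, against -0.08 over all 13781 genes.

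Genes of receptor signalling were lower in part. Of 20, 9 were at least 2-fold lower and 0 at least 2-fold higher, with a median of -0.96, against 15.2% and 11.0% of all genes. Without mixed barcodes 6 were lower and 0 higher, with a median of -0.68, against 17.9% and 9.70%. Fyn, a kinase that acts beside LCK at the receptor, stood at 56.1 CPM in AKT1.MYC against 262 CPM in NRAS.MYC.ND T cells, a log2 ratio of -2.22 (-2.74 to -1.75), and was seen in 19.0% against 69.6% of CD8 cells. Its background was 4.23 and 35.8%. Lck stood at 120 against 225 CPM, Zap70, the kinase that binds CD3 zeta, at 46.7 against 102 CPM, Lat, the adaptor it phosphorylates, at 160 against 309 CPM and Sh2d1a, the SLAM adaptor SAP, at 68.5 against 275 CPM. Cd2, an adhesion receptor, was within 2-fold at 128 against 156 CPM. The costimulatory receptor Cd27 was lower at 37.4 against 162 CPM, and Cd28 stood at 269 against 436 CPM. Without mixed barcodes Lck stood at 206 against 302 CPM, Lat at 262 against 413 CPM, Cd28 at 444 against 584 CPM and Cd2 at 216 against 209 CPM.

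Cxcr6 (chr9:123806475-123811760, plus strand), the receptor of tissue-resident T cells, was lower. It had 29 UMIs or 45.2 CPM in AKT1.MYC against 2289 UMIs or 237 CPM in NRAS.MYC.ND T cells, a log2 ratio of -2.39 (-2.97 to -1.86). It was seen in 15% (9.14 to 22.7%) against 50.2% of cells, with backgrounds of 0.161 and 3.43%, and in 11.0% against 34.4% after thinning. Itga1, the CD49a chain of resident lymphocytes, stood at 32.7 against 95.6 CPM and Itga4 at 74.8 against 214 CPM. Cxcr4, the receptor for CXCL12, stood at 107 against 58.7 CPM. In the list of 11 residency genes with a ratio, 0 were at least 2-fold higher and 3 at least 2-fold lower, with a median of -0.40, against 11.0% and 15.2% of all genes. Without mixed barcodes 2 were higher and 3 lower, with a median of -0.23, against 9.70% and 17.9%.

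Heat shock genes were higher in part. Of 11, 5 were at least 2-fold higher and 0 at least 2-fold lower, with a median of 0.95, against 11.0% and 15.2% of all genes. Without mixed barcodes 4 were higher and 0 lower, with a median of 0.86, against 9.70% and 17.9%. Over every setting tried the median ran from 0.58 to 1.33. Hspa1a, an inducible HSP70, stood at 293 CPM in AKT1.MYC against 72.6 CPM in NRAS.MYC.ND T cells, a log2 ratio of 2.01 (1.77 to 2.25), and was seen in 51 against 248 cells. Its background was 43.9 and 57.7%. Hspa1b stood at 111 against 31.1 CPM, Dnajb1, an HSP70 helper, at 193 against 95.8 CPM and Hsph1 at 40.5 against 10.0 CPM. In the other barcodes Hspa1a stood at 267 CPM in AKT1.MYC and 225 CPM in NRAS.MYC.ND, Hspa1b at 62.6 and 30.2 CPM, Dnajb1 at 113 and 55.8 CPM and Hsph1 at 23.4 and 6.31 CPM. The surrounding barcodes thus differed in the same direction for these 4 genes, by about as much for Dnajb1 and Hsph1, and the part of free RNA was not tested.

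Immediate early genes, switched on soon after a stimulus, had a median near that of all genes. Of 14, 1 was at least 2-fold higher and 0 at least 2-fold lower, with a median of -0.06, against 11.0% and 15.2% of all genes. Without mixed barcodes 1 was higher and 1 lower, with a median of 0.17, against 9.70% and 17.9%. Fos, a subunit of AP-1, stood at 1715 CPM in AKT1.MYC and 2712 CPM in NRAS.MYC.ND T cells. Atf3, the higher member, stood at 878 against 199 CPM, with 2261 CPM in the other AKT1.MYC barcodes, and was seen in 83.8 and 72.0% of C1q-high barcodes.

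By the rule of size over all genes, the 12 genes with the largest ratio among all 120 cells were led by Col1a1, Lum, Col1a2 and Col3a1, matrix genes of fibroblasts, and by Acta2 and Tagln, contractile genes of pericytes. Col1a1 stood at 1095 CPM in AKT1.MYC against 22.2 CPM in NRAS.MYC.ND T cells, and 678 of its 703 UMIs in AKT1.MYC lay in mixed barcodes. The 12 lowest were led by hepatocyte genes, among them Igfbp1 at 3.11 against 727 CPM and Apoa1 at 18.7 against 2344 CPM, with Igkc and Igha, immunoglobulin genes of plasma cells. Markers of other cells differed in the same directions, and their part in these values was not tested. Fibroblast markers had a median log2 ratio of 4.37, with 6 of 7 at least 2-fold higher, and hepatocyte markers -2.08, with 6 of 8 at least 2-fold lower. Without mixed barcodes these medians were 1.16, with 5 of 7 higher and 1 lower, and -1.54, with 5 of 8 lower. The 7 endothelial markers were all at least 2-fold lower, with a median of -3.49, and of -3.70 without mixed barcodes.

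Without the mixed barcodes no collagen gene was among the 12 highest. They included Klrb1b at 73.0 CPM in 106 AKT1.MYC cells against 8.30 CPM in 1596 NRAS.MYC.ND cells (log2 ratio 3.14, 2.42 to 3.82), Nt5e, the adenosine-producing ectoenzyme CD73, at 59.5 against 9.16 CPM, and Jaml, an adhesion molecule of T cells, at 75.7 against 14.7 CPM. P2ry10, a lysophospholipid receptor of lymphocytes (chrX:107088492-107104974, plus strand), stood at 162 against 40.6 CPM (log2 ratio 2.00, 1.57 to 2.40), and was seen in 38 against 229 cells, with backgrounds of 0.391 and 1.79%. Satb1 and 3 heat shock genes, Hspa1a, Hspa1b and Hsph1, were also among the 12, as were Rrad, Dgat1, an enzyme of triglyceride synthesis, and Kbtbd11. Irs2, the insulin receptor substrate, at 54.1 against 5.15 CPM, had the largest ratio of all, in 12 and 31 cells.

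Among the 12 lowest without mixed barcodes were Lag3, Tox and Tox2. Lag3 stood at 24.3 against 297 CPM there and Tox at 56.8 against 331 CPM. Rflnb had the lowest ratio, at 5.41 against 106 CPM and in 2 against 179 cells. Its log2 ratio ran from -4.30 to -0.06 over the settings, and 1 NRAS.MYC.ND cell held 137 of its UMIs. Cd55, the complement decay factor, stood at 8.11 against 94.7 CPM, in 3 against 205 cells. In the other NRAS.MYC.ND barcodes Rflnb stood at 95.5 CPM and Cd55 at 90.5 CPM, and the part of free RNA was not tested. Of the genes past this rule 33 were higher and 34 lower.

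Other lists depended on the mixed barcodes to a varying degree. Beside the counts here and in the next paragraph stand the shares over all genes. These were 11.0% higher and 15.2% lower, and 9.70% and 17.9% without mixed barcodes. Cell cycle genes had a median of -0.18, with 0 of 14 at least 2-fold higher and 1 lower, and -0.63 without mixed barcodes, with 0 higher and 2 lower. The cycling gate held 16 AKT1.MYC cells (13.3%) and 175 NRAS.MYC.ND cells (10.0%), with backgrounds of 6.35 and 6.62%. Of those 16 cells, 7 were mixed barcodes. Regulatory T cell genes turned in direction, with a median of -0.34, 1 of 11 higher and 3 lower over all cells, and 0.31, 2 higher and 4 lower without mixed barcodes. Costimulatory receptors turned as well, with -0.24 and 0.14, and 0 of 10 higher and 3 lower both ways. Lineage factors had -0.12 with 2 of 13 higher and 4 lower, and -0.63 with 1 of 12 higher and 3 lower.

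Type 17 and gamma-delta genes had a median of 1.09, with 8 of 13 higher and 2 lower, and 1.21 without mixed barcodes, with 6 of 10 higher and 2 lower. Only 3 of these genes had at least 160 UMIs, and of those 0 were higher and 2 lower, against 4.09% and 14.4% of genes at that depth. The type 17 gate held 5 AKT1.MYC cells, 3 of them mixed barcodes, and 32 NRAS.MYC.ND cells, with backgrounds of 0.069 and 0.0779%. Type 2 genes had 1.00 with 4 of 8 higher and 0 lower, and 1.47 with 4 of 7 higher and 0 lower, on few UMIs. Of the 4 with at least 160 UMIs over all cells, 1 was higher and 0 lower. All 20 Calca UMIs and 14 of the 21 Areg UMIs of AKT1.MYC T cells lay in 1 cell. Glycolysis and hypoxia genes had 0.52 with 2 of 14 higher and 0 lower, and 0.31 with 5 higher and 0 lower. The receptor and CD3 list, which the rule used, had -1.31 with 2 of 11 higher and 7 lower, and -1.05 with 2 higher and 6 lower. The 3 coreceptors had -1.46 and -1.18, with 0 higher and 2 lower both ways.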

How the data were processed

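Raw UMI counts per gene and barcode were deposited for 2 libraries, 1 per model, made with 10x Chromium 3 prime v2 chemistry per the labels' protocols. The counts were made with Cell Ranger against mm10, version 6.1.1 per the file headers and 6.1.2 per the submitters' processing notes (annotation release: not given in the sources used here). Each matrix has 55450 genes. The AKT1.MYC library holds 10766 barcodes and 64516171 UMIs (median 1773 per barcode), and the NRAS.MYC.ND library 6312 barcodes and 42416125 UMIs (median 4043). No barcode holds fewer than 500 UMIs.

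Members, gene lists and gates were chosen with earlier results of these data known. Counts were summed over the T cells of a library and scaled to CPM. Ratios are log2 of AKT1.MYC over NRAS.MYC.ND CPM for genes with at least 10 UMIs over both, with exact 95% conditional binomial intervals; shares have exact Clopper-Pearson intervals. PCR and capture make intervals and floors (3 counts) cover counting error only. With 1 library per model there was no test, p-value or SD. Shares were repeated with each cell thinned to 1500 UMIs (seed 0), leaving out shallower cells. Doublets were limited by the C1q and epithelial limits; Scrublet scores were an alternative. The ratio and interval code was tested on simulated counts with 200 changed genes.

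Named genes were the 12 per direction with the largest ratio among genes with at least 30 UMIs over both, at least 50 CPM and 10% of T cells positive in the higher library, an interval that excludes 2-fold, and a level in T cells at least that of all other barcodes there. The rule genes, mitochondrial, ribosomal, haemoglobin, sex-linked marker, receptor segment and predicted genes were left out. Members of the 22 lists (391 entries with the lists of other cells, all matched by symbol) and of the gates could also be named; a few are not reported here. Gene positions are those of GENCODE vM21 (GRCm38), matched by Ensembl identifier. Python 3.11.15, NumPy 2.4.6, SciPy 1.17.1, pandas 2.3.3, Scanpy 1.11.5 and matplotlib 3.10.9 were used.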

Additional observations from a re-analysis of the deposited data

How the results depend on the processing

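No paired analysis was possible because each model has 1 library. The shares of T cells and of the CD8, NK, inhibitory and naive gates, the medians of the 22 lists and the ratios of 138 named genes were recomputed under other settings, of which leaving out mixed barcodes, a maximum of 10000 UMIs and a minimum of 160 UMIs per gene were chosen after seeing the data. None of the 5 shares turned against NRAS.MYC.ND in direction. Requiring 3 receptor genes gave shares of 0.873% for T cells (25.3% in NRAS.MYC.ND), 51.1% for CD8 (73.3%) and 11.1% for the NK gate (8.48%). Halving both limits gave 0.630% for T cells (28.3%) and 27.7% for the NK gate (8.99%), and a minimum of 1000 UMIs 1.54% for T cells (30.1%). Thinning to 1500 and to 1000 UMIs gave 27.5 and 21.9% for CD8 (57.0 and 48.0%), 7.34 and 3.51% for NK (4.45 and 2.56%), 10.1 and 9.65% for inhibitory (40.4 and 31.0%) and 18.3 and 11.4% for naive (11.3 and 7.69%). Genes at least 2-fold higher numbered 2320, 961 and 301 with minimums of 3, 30 and 160 UMIs, against 1518, and with 160 UMIs 1061 were lower, against 2091. Of 352 recomputed list medians 10 left the order-statistic interval of the reported one. Of the 138 genes 27 had values on both sides of 0, and for 12 of these the counting interval of the reported ratio leaves out 0. With 3 receptor genes Klrb1b was at -1.23, Gzma at -0.85 and Areg at -0.25. With the rule on thinned barcodes Acta2 was at -0.32, Tagln -0.85, Gzma -0.09 and Areg -0.12. Bgn was at -0.55 without mixed barcodes. In the CD8 gate Gzma was at -0.26, S1pr1 0.20, Areg -0.35 and Icos -0.47. With cells thinned to 1500 UMIs Tcf7 was at -0.34 and Klrb1c at -1.16, and with neither limit Fcer1g was at -0.73, Tyrobp -0.76 and Icos -0.01. The cause was not tested. Against the main setting the median over all genes shifted by 0.12 with the rule on thinned barcodes and by 0.11 in the CD8 gate. Subtracting free RNA gave no value, since it would have removed 51.1% of the AKT1.MYC and 140% of the NRAS.MYC.ND T cell UMIs. Scrublet's own threshold marked 0 and 2 barcodes and so did not work; its highest scores removed 9 AKT1.MYC and 76 NRAS.MYC.ND T cells. Depth limits all statements on genes with few UMIs in 120 cells: a gene at 0 there can stand at up to 4.67 CPM.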

Other observations

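Cytokine receptors of the AKT1.MYC T cells did not share 1 direction. Of 16 such genes with a ratio, 3 were at least 2-fold higher and 4 at least 2-fold lower than in NRAS.MYC.ND T cells. Their median log2 ratio was 0.12. Without mixed barcodes 3 of 15 were higher and 3 lower, with a median of 0.12. Of all genes 11.0% were higher and 15.2% lower, and 9.70% and 17.9% without mixed barcodes. Il2ra, the high-affinity interleukin 2 receptor chain of activated and regulatory T cells, had 11 UMIs in 8 AKT1.MYC cells and 21 UMIs in 18 NRAS.MYC.ND cells, a log2 ratio of 2.98 (1.78 to 4.10), while Foxp3 was at 0 in AKT1.MYC. Il2rb stood at 167 against 137 CPM, Il18r1 at 34.3 against 19.8 CPM and Il21r, the receptor for interleukin 21, was lower at 37.4 against 99.8 CPM. Among 10 survival genes, 1 was at least 2-fold higher and 3 at least 2-fold lower, with a median of -0.09, against 11.0% and 15.2% of all genes. Without mixed barcodes 2 were higher and 3 lower, with -0.18, against 9.70% and 17.9%. The higher gene over all cells was Bcl2l11, which codes for the death factor BIM, at 142 CPM in AKT1.MYC against 62.2 CPM in NRAS.MYC.ND T cells. Its log2 ratio was 1.19 (0.85 to 1.51). It was seen in 54.8% of 42 AKT1.MYC against 17.9% of 1105 NRAS.MYC.ND CD8 cells, and in 23.6 and 32.8% of C1q-high barcodes. The NRAS.MYC.ND C1q-high barcodes were deeper, at a median of 8894 UMIs against 3086 in its T cells, so these shares are not directly comparable. The part of free RNA was not tested. Bcl2, its antagonist, stood at 385 against 285 CPM.

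A few values rest on a single AKT1.MYC cell. Calca, the calcitonin gene-related peptide gene, had 20 UMIs in 1 cell of 5765 UMIs, which also held 14 Areg, 9 Pdcd1, 8 Gata3 and 36 Ccl5 UMIs, 1 Trbc1 and 2 Trbc2 UMIs and no CD3 gene. Gzmc, granzyme C, had 7 UMIs in 1 cell. Cytokine genes had a median log2 ratio of -0.13, with 2 of 15 at least 2-fold higher and 6 lower, and -0.34 without mixed barcodes, with 1 of 14 higher and 4 lower. Chemokine receptors had -0.55, with 1 of 13 higher and 4 lower, and 0.27 without mixed barcodes, with 2 of 12 higher and 3 lower. Beside both lists, 11.0% of all genes were higher and 15.2% lower, and 9.70% and 17.9% without mixed barcodes.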
